A study of Bos taurus with 138 samples.

Results

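The 10 genes described here are protein-coding genes of the bovine mitochondrial genome, taken as the rows of the deposited count table with the symbols ND1, ND2, ND3, ND4, ND5, CYTB, COX1, COX2, COX3 and ATP6. All 10 were found among the 16706 genes of the table, and all 10 passed the filter on low counts in every model. The table also holds the remaining 3 mitochondrial protein-coding genes, ATP8, ND4L and ND6, which are not members and are mentioned only beside their neighbours. In the order along the mitochondrial genome, ATP8 lies just before ATP6, ND4L just before ND4, and ND6 between ND5 and CYTB.

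Mitochondrial DNA is transcribed inside the organelle into long precursors that are cut into separate mRNAs, most of which receive a short poly(A) tail. The mRNAs are translated in the matrix by mitochondrial ribosomes, which differ from the cytosolic ribosomes in size and composition and which cycloheximide does not block. The ND genes encode subunits of respiratory complex I, CYTB encodes cytochrome b of complex III, COX1, COX2 and COX3 encode the catalytic core subunits of complex IV (cytochrome c oxidase), and ATP6 encodes a subunit of the proton channel of ATP synthase. Each complex also needs subunits encoded in the nucleus and made on cytosolic ribosomes. Oocytes hold very many mitochondria, which are shared out among the blastomeres during cleavage.

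The study compared the mRNA of bovine (Bos taurus) oocytes and in vitro produced embryos in sucrose gradient fractions with that in unfractionated samples at 6 stages: germinal vesicle (GV) oocytes, in vitro matured metaphase II (MII) oocytes, 2-cell embryos, 8-cell embryos, morulae and blastocysts. At each stage, lysates of pooled oocytes or embryos made with Triton X-100 and cycloheximide were run on 2 gradients (A and B), each cut into 10 fractions from the lightest (F1) to the heaviest (F10), and 3 whole transcriptomes (A, B and C) were sequenced, which gave 120 fraction and 18 transcriptome libraries. The study assigns F1 and F2 to free RNA, F3 to F5 to monosomes, F6 and F7 to an intermediate zone, and F8 to F10 to polysomes of cytosolic ribosomes. The oocytes came from slaughterhouse ovaries, the animals behind each pool are not given, and the gradients received cleared lysate whereas the transcriptomes came from whole oocytes or embryos, so clearing and fractionation cannot be told apart in any comparison between them.

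Library totals were 1229382 to 17342859 counts in the fractions and 3269386 to 11812567 in the transcriptomes, and the lowest count of any member in any library was 6 (ND3 in F3 of GV gradient B). Every oocyte marker on the list (12 of 12) had a mean of at least 1 CPM (counts scaled to an equal library total of 1e6) in GV oocytes, and 7 of 8 blastocyst markers did in blastocysts. That cut does not separate the stages, since 11 of 12 oocyte markers passed it in blastocysts and 5 of 8 blastocyst markers in GV oocytes. Oocyte markers summed to 25216 to 31314 CPM in GV and 419 to 1819 CPM in blastocyst transcriptomes. Blastocyst markers summed to 65.5 to 79.2 CPM and 5344 to 5858 CPM, although NANOG was highest in 8-cell and CDX2 in 2-cell embryos. Transcripts listed as cumulus cell markers summed to 533 to 783 CPM in GV transcriptomes and 317 to 888 CPM in those of blastocysts. Most of the GV sum was STAR (mean 592 CPM) and most of the blastocyst sum PTGS2 (mean 580 CPM). In MII transcriptomes the markers summed to 434 to 561 CPM. There, 10 of 12 had a mean of at least 1 CPM, against 6 of 12 in GV. Between GV and MII the HAS2 mean rose from 35.7 to 147 CPM, while that of STAR fell to 147 CPM. The means of CYP19A1 and LHCGR also fell, and those of the other listed markers rose. CYP11A1 rose from 0.0368 to 13.3 CPM, INHA from 0.0587 to 8.35 CPM and INHBA from 0.37 to 13.4 CPM. TNFAIP6, at 0.0587 CPM in GV, rose more than these. All of CYP11A1, INHA, INHBA and TNFAIP6 were below 1 CPM in GV and above it in MII. The part of these transcripts in the results, including the step from GV to MII, was not tested. Each library was amplified and scaled on its own, so all values below are levels relative to the other mRNAs of the same library. Fewer cells of a type and less RNA per cell cannot be told apart.

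In the transcriptomes, the summed share of the 10 mitochondrial mRNAs was 43.1 times as high in the blastocyst as in the GV oocyte. It was 0.464%, 0.428% and 0.517% in the 3 GV transcriptomes, 1.28%, 1.02% and 0.679% in MII, and the 2-cell libraries had 0.982%, 1.20% and 1.29%. The 8-cell libraries had 4.30%, 5.47% and 5.42% and those of morulae 6.27%, 5.85% and 5.15%. Blastocyst libraries had 19.0%, 22.5% and 19.1%. The ranges of neighbouring stages overlapped between MII and 2-cell and between 8-cell and morula, and were separate at the other 3 steps.

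**Figure D1:**
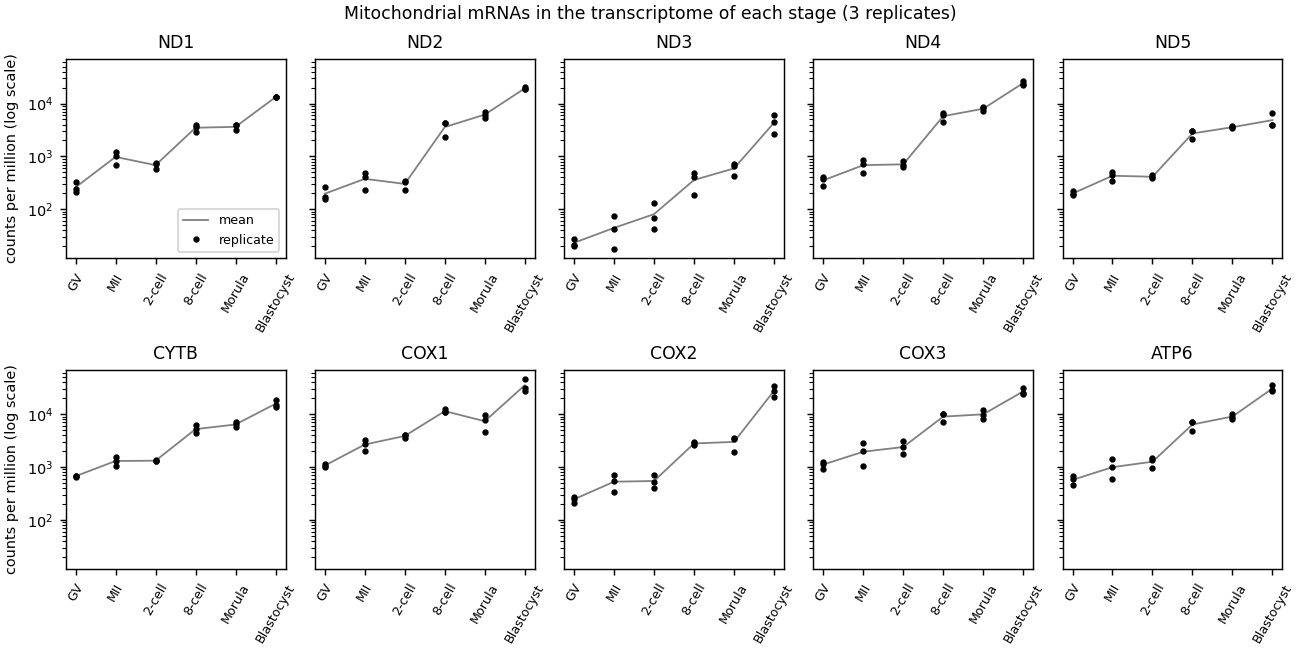
CPM of each mitochondrial mRNA (log axis, 1 panel per gene) in the 3 transcriptome replicates of each stage (points) with their mean (line). All 10 rose between the 2-cell and 8-cell stages, 9 of 10 rose again between morula and blastocyst, and the COX1 mean was lower in morulae than in 8-cell embryos, without a call.

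Every member had a higher level in 8-cell than in 2-cell transcriptomes. In edgeR's quasi-likelihood test, 10 of 10 members were higher at the 8-cell stage, with a median log2 difference of 2.39 (range 1.59 to 3.61), where 27.7% of all 14612 genes tested were called higher. ND2 had the largest step: its levels were 236, 322 and 348 CPM in 2-cell and 2283, 4194 and 4286 CPM in 8-cell transcriptomes, a log2 difference of 3.61 ± 0.39 (SE, adjusted p = 5.35e-08). COX1 had the smallest: 3532, 3973 and 4090 CPM against 12290, 10801 and 11048 CPM, a log2 difference of 1.59 ± 0.40 (SE, adjusted p = 0.00182). No 2-cell library reached the level of any 8-cell library for either gene.

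From morula to blastocyst 9 of 10 members rose, against 10.8% of all genes called higher, with a median log2 difference of 1.82. COX2, which carries the copper site that accepts electrons from cytochrome c, was at 3441, 3559 and 1954 CPM in morulae and 21380, 33868 and 27390 CPM in blastocysts, a log2 difference of 3.34 ± 0.50 (SE, adjusted p = 3.05e-05). ND3, a small membrane subunit of complex I, went from 647, 422 and 711 CPM to 5953, 2614 and 4445 CPM (2.98 ± 0.50, SE, adjusted p = 0.000106). ND5 was the member not called: it was at 3691, 3572 and 3456 CPM in morulae and 3934, 6629 and 4014 CPM in blastocysts (0.57 ± 0.38, SE, adjusted p = 0.294). ND5 was highest in blastocyst replicate B, and the means of the 2 stages differed by a ratio of 1.36, where that of COX2 was 9.23.

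Most of the members had a higher level in MII than in GV transcriptomes. Between GV and MII, 7 of 10 members were called higher and none lower, with a median log2 difference of 1.36, where 7.72% of all genes were called higher. ND1, a membrane-arm subunit of complex I, rose most, from 210, 239 and 332 CPM to 1231, 1024 and 685 CPM (2.30 ± 0.31, SE, adjusted p = 7.17e-06). ND3, COX3 and ATP6 were not called, at log2 differences of 1.32, 1.20 and 1.20. The COX2 call was lost without any 1 GV transcriptome and without MII transcriptome A or B. That of ND2 was lost without transcriptome A of GV or of MII. MII replicate C held the lowest summed share of the 3 MII libraries.

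Between MII and 2-cell, ND1 alone was called, at a log2 difference of -1.02 ± 0.30 (SE, adjusted p = 0.0252), where 6.62% of all genes were called lower. Its call was lost without MII transcriptome replicate A (one of 3 such libraries, the others being 2-cell A and C). Between 8-cell and morula no member was called, where 15.4% of all genes were called in either direction. The median over members was 0.42, 1 of 10 had an unadjusted p under 0.05, and DESeq2 and the likelihood ratio test called 0. COX1 had ranges that did not overlap at this step, 10801 to 12290 CPM in 8-cell embryos and 4606 to 9564 CPM in morulae, yet its log2 difference of -0.56 ± 0.39 (SE) had an adjusted p of 0.362.

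The polysome pools held less of the mitochondrial mRNAs than the transcriptomes at every stage. Up to the 8-cell stage this was not particular to the polysome pools. All 20 fraction libraries of each of these stages had a lower summed share than every transcriptome of the stage. Over the 60 tests of 10 members at 6 stages, 52 were called lower in the pooled F8 to F10 than in the transcriptome and none higher. The members called lower numbered 9 in GV oocytes (17.7% of all genes were called lower), 10 in MII (26.7%), 10 in 2-cell (21.9%), 8 in 8-cell (31.0%), 8 in morulae (25.2%) and 7 in blastocysts (20.1%). Their median log2 difference was -1.80, -3.19, -2.28, -2.01, -1.92 and -2.71 in the same order, where the median over all genes lay between -0.26 and 0.18.

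**Figure D2:**
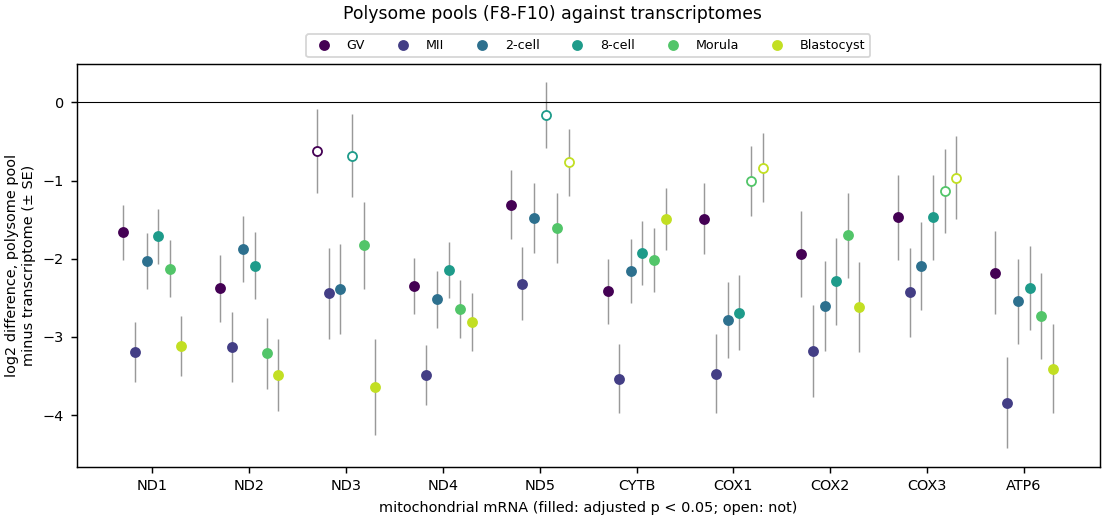
Log2 difference between polysome pool and transcriptome for each mRNA (horizontal axis) at each stage (colours), with SE bars, from edgeR's quasi-likelihood model. All 60 points lie below 0, and the 8 open points (ND3 in GV and 8-cell, ND5 in 8-cell and blastocyst, COX1 and COX3 in morula and blastocyst) did not pass the adjusted threshold.

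ND1, ND2, ND4, CYTB, COX2 and ATP6 were called lower at all 6 stages. ND4, a proton-pumping subunit of complex I, was at 94.8 and 53.5 CPM in the GV polysome pools against 376, 279 and 403 CPM in the transcriptomes (log2 difference -2.35 ± 0.36, SE, adjusted p = 1.4e-05). In MII the pools had 49.9 and 80.8 CPM against 845, 714 and 491 CPM (-3.49 ± 0.39, SE, adjusted p = 4.53e-08). In blastocysts they had 2205 and 3277 CPM against 22894, 26590 and 23890 CPM (-2.81 ± 0.37, SE, adjusted p = 2.12e-06). The comparisons between stages and between polysome and transcriptome share these libraries. At each of these stages both pools lay below all 3 transcriptomes.

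ND3, ND5, COX1 and COX3 were each called at 4 of 6 stages. COX1, the subunit with the oxygen-reducing centre of cytochrome c oxidase, was 2.69 ± 0.48 (SE) log2 units below the transcriptome in 8-cell embryos (adjusted p = 5.66e-05), with 2353 and 1011 CPM against 12290, 10801 and 11048 CPM. In blastocysts it was at 14075 and 16963 CPM in the polysome pools and 27130, 46744 and 31592 CPM in the transcriptomes, a log2 difference of -0.84 ± 0.44 (SE, adjusted p = 0.134). For ND3 the order of the stages was the other way round: -0.63 ± 0.53 (SE, adjusted p = 0.368) in GV oocytes and -3.64 ± 0.61 (SE, adjusted p = 4.72e-05) in blastocysts.

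Leaving out polysome pool B at the GV stage reduced the GV count from 9 to 4, the lowest count for GV in any leave-out, and leaving out polysome pool B of the morulae reduced the morula count from 8 to 5. The polysome pool A of GV oocytes, which then remained, had 0.193% of its counts on the members and pool B had 0.104%.

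From F3 to F10, the mitochondrial mRNAs had opposite profiles early and late in development. In GV oocytes, MII oocytes and 2-cell embryos the low point of the summed share lay between F3 and F6 and the level was higher in F10. The light end was also high in MII, where F1 was the peak of both gradients (mean 0.441% against 0.184% in F10). In 2-cell embryos the mean was 0.224% in F1 and 0.435% in F10. In morulae and blastocysts the level was highest in the light fractions and fell towards F10. The summed share in GV oocytes was lowest at 0.0213% (F5, gradient A) and 0.0140% (F4, gradient B) and reached 0.406% and 0.135% in F10. In blastocysts it was highest in F2, at 37.2% and 32.2%, and it had fallen to 2.68% and 4.57% in F10.

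**Figure D3:**
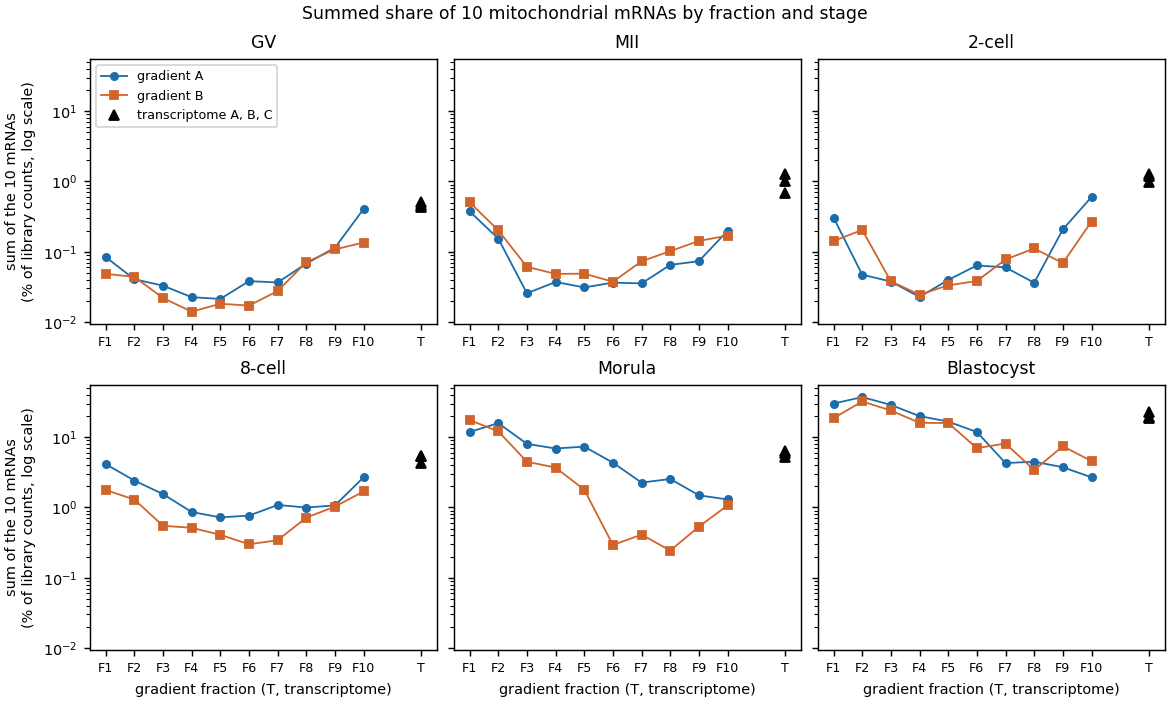
Summed share of the 10 mRNAs in percent of library counts (log axis) in F1 to F10 of gradients A and B and in the 3 transcriptomes (T) of each stage. The share was highest in F10 in GV oocytes, was high at both ends in MII, 2-cell and 8-cell, and was highest in F1 or F2 in morulae and blastocysts.

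Up to the 8-cell stage, all 20 fraction libraries of a stage had a lower summed share than every transcriptome of that stage. In morulae 13 of 20 did, and 7 lay above every transcriptome (F1 and F2 of both gradients and F3 to F5 of gradient A). In blastocysts 14 lay below and 5 above (F2 and F3 of both gradients and F1 of gradient A). The sum followed the single members: of the 20 profiles of a stage (10 mRNAs in 2 gradients), all 20 peaked in F8 to F10 in GV oocytes, 16 in 2-cell embryos, 7 in MII, 5 in 8-cell embryos and none in morulae or blastocysts.

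The trend from F3 to F10 was tested gene by gene with Spearman's rho over the 16 libraries of a stage and a permutation test across all genes with a mean of at least 1 CPM. The 16 libraries are fractions of 2 gradients that share a lysate within each gradient, so they are not independent replicates. The permutation treats them as exchangeable, and its p does not measure the spread between gradients. In GV oocytes 10 of 10 members rose with fraction number (median rho 0.84), where 18.1% of all genes rose. In MII 7 of 10 rose (median rho 0.71, against 7.35% of all genes), and in 2-cell embryos 10 of 10 rose (median rho 0.82, against 10.7%). ND1, ND3 and COX2 were the members not called in MII, at rho of 0.56, 0.62 and 0.43.

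At the 8-cell stage no member was called in the permutation test, where 15.2% of all genes were called in either direction. The median rho was 0.29, and 3 of 10 members had an unadjusted p under 0.05. In morulae again none was called, where 1.66% of all genes were, although all 10 had a negative rho (median -0.65) and an unadjusted p under 0.05. In blastocysts 10 of 10 fell with fraction number, where 1.76% of all genes fell. Their median rho was -0.87, from -0.93 for ND5 (adjusted p = 0.00137, permutation test) to -0.82 for COX2 (adjusted p = 0.0091, permutation test). With 1 gradient alone (8 libraries), no blastocyst call remained, and of the 27 upward calls of the early stages 6 were made with gradient A alone and 9 with gradient B alone.

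**Figure D4:**
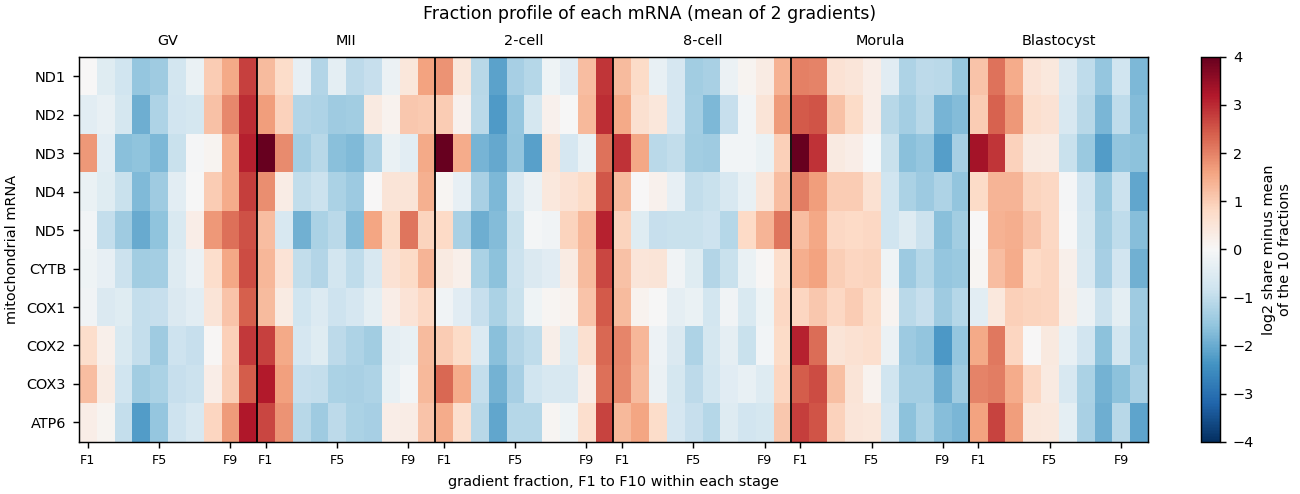
Log2 share of each mRNA in each fraction minus its mean over the 10 fractions of the stage (colour; mean of 2 gradients), with fractions F1 to F10 side by side within each stage. Red (above the mean, with the scale ending at 4) lies at the right edge in GV oocytes and at the left edge in morulae and blastocysts, and in F1 the ND3 row has the highest value of the 10 at every stage.

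Pooled by class, the polysome fractions held a higher summed share than the monosome fractions of the same gradient in 8 of 12 gradients. In GV oocytes the polysome pools had 0.193% and 0.104% against 0.0264% and 0.0181% in the monosome pools, ratios of 7.32 and 5.73. The MII ratios were 3.46 and 2.59, those of the 2-cell stage 8.59 and 4.53, and those of the 8-cell stage 1.31 and 2.32. They were below 1 in both gradients of the later stages, with 0.228 and 0.174 for morulae. Blastocysts had 0.169 and 0.272, and there the monosome pools held 21.6% and 19.1% of counts on the members and the polysome pools 3.66% and 5.20%.

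Gene by gene, edgeR's quasi-likelihood test over 15049 genes called 5 of 10 members higher in polysome than in monosome pools in GV oocytes, where 0.346% of all genes were called higher. Pools of a gradient share a lysate, and with the gradient as a replicate block all 10 were called. The shares of all genes printed with the pool comparisons come from the main fit, and those of the block fit are not printed. None of the 5 calls remained without either GV gradient. ND5, a pump subunit at the tip of the membrane arm of complex I, was at 122 and 51.1 CPM in polysome and 7.08 and 5.08 CPM in monosome pools (log2 difference 3.60 ± 0.64, SE, adjusted p = 0.00867). ATP6 was at 194 and 76.8 CPM against 15.1 and 6.40 CPM (3.41 ± 0.79, SE, adjusted p = 0.0486). In both genes each polysome pool lay above both monosome pools.

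In MII, ND5 alone was called higher (2.92 ± 0.62, SE, adjusted p = 0.0432; 0.140% of all genes were called higher), and 4 members were called with the replicate block. The ND5 call was lost without any 1 gradient of the MII, GV, 2-cell or blastocyst stage. In 2-cell embryos the test called no gene in either direction (0% of all genes), with 341 genes higher and 337 lower at an unadjusted p under 0.05. All 10 members were among the higher ones, with a median log2 difference of 2.88, and 9 of them were called with the replicate block, 8 in DESeq2 and 5 in the likelihood ratio test. The 0% of all genes belongs to the main fit, and the shares in these other fits are not printed. At the 8-cell stage the median was 0.41, and ND5 alone was called (3.17% of all genes were called higher).

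In morulae no member was called (0.365% of all genes were called in either direction). All 10 had a negative difference (median -2.35) and an unadjusted p under 0.05. All 10 were called lower with the replicate block, and 9 in DESeq2 and 9 in the likelihood ratio test. For these fits, here and for the blastocysts below, the share of all genes is not printed. COX3 was at 5402 and 992 CPM in the morula polysome pools and 25027 and 7929 CPM in the monosome pools (-2.41 ± 0.72, SE, adjusted p = 0.11). In blastocysts ND2, ND4 and ND5 were called lower, where 0.299% of all genes were, and all 10 with the replicate block. The 3 calls were each lost without any 1 gradient of the blastocyst, GV, MII or 2-cell stage. ND4 was at 2205 and 3277 CPM against 14889 and 14579 CPM (-2.58 ± 0.55, SE, adjusted p = 0.0297). COX3 was at 8295 and 13358 CPM against 66875 and 58581 CPM (-2.69 ± 0.73, SE, adjusted p = 0.087).

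The turn of the polysome-to-monosome difference between stages was tested as an interaction, a test added after the profiles had been seen. Between GV oocyte and blastocyst the difference fell in 9 of 10 members, by a median of 5.41 log2 units over the 10, where 0.113% of all genes had a called decrease. ND5 had the largest decrease (-6.27 ± 0.88, SE, adjusted p = 0.000927), and COX2 was the member not called (-4.24 ± 1.08, SE, adjusted p = 0.119). Leaving out gradient A of the GV oocytes removed all 9 calls and leaving out gradient B left 3, and 4 were left without either blastocyst gradient, in tests with 1 gradient at that stage.

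Of the single steps, 8-cell to morula had the largest median (-2.75), and ND5 was called there (-4.27 ± 0.85, SE, adjusted p = 0.0241), where 0.113% of all genes had a called decrease. The call was lost without 8-cell gradient B, without morula gradient A and without any 1 gradient of the GV, MII or 2-cell stage. With the replicate block 8 members were called at this step. Between 2-cell and 8-cell no member was called (0.352% of all genes in either direction), with a median of -2.24 and 8 members with an unadjusted p under 0.05, and DESeq2 called 5 and the likelihood ratio test 4. Between morula and blastocyst none was called either (0.126% of all genes in either direction), with a median of -0.30, 0 members at an unadjusted p under 0.05 and 0 in DESeq2. No gene of the table was called between GV and MII or between MII and 2-cell (0% of all genes at both steps), where 695 and 335 genes had an unadjusted p under 0.05.

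The free fractions, F1 and F2, held a higher summed share than the monosome fractions in 12 of 12 gradients, with ratios from 1.51 (blastocyst, gradient B) to 8.03 (MII, gradient A). ND3 had the largest difference of the members at every stage and was called higher at all 6. Its call was lost without either gradient of the same stage in GV, MII, 2-cell and blastocyst. In 8-cell embryos and morulae it was lost without gradient A of the stage. The morula and blastocyst calls were also lost without either MII gradient, and the morula call without either 2-cell gradient. In GV oocytes ND3 was at only 1.71 and 0.806 CPM in the monosome pools. The members called higher numbered 1 in GV (1.07% of all genes were called higher), 6 in MII (0.910%), 1 in 2-cell (0.153%), 1 in 8-cell (0.346%), 1 in morulae (0.00664%) and 1 in blastocysts (0.286%). In morulae ND3 was the only gene of the 15049 called higher, and the call was lost when libraries were scaled without the members. All of these comparisons share the monosome pools with those of the polysome pools.

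ND3 was at 71.6 and 75.3 CPM in the free pools of MII oocytes and 2.10 and 2.76 CPM in the monosome pools, a log2 difference of 5.24 ± 0.68 (SE, adjusted p = 0.000622). In 2-cell embryos it was at 108 and 68.5 CPM against 2.11 and 2.12 CPM (5.59 ± 0.69, SE, adjusted p = 0.000261). In blastocysts it was at 8664 and 6619 CPM against 1429 and 1351 CPM (2.76 ± 0.60, SE, adjusted p = 0.0228). At all 3 stages both free pools lay above both monosome pools. The other 5 called in MII were ND2, ND4, COX2, COX3 and ATP6, and with the replicate block the free pools had 29 calls over the 60 tests in place of 11.

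COX1 had the lowest difference of the members between free and monosome pools at 5 of 6 stages (CYTB did in 8-cell embryos) and was called at none. Its log2 difference was 0.85 in GV and 2-cell, 1.89 in MII, 0.65 in 8-cell, 0.24 in morulae and -0.36 ± 0.54 (SE, adjusted p = 0.947) in blastocysts.

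The make-up of the mitochondrial counts shifted along the gradient. Within one gene, the share of the members' counts can be compared between pools, whereas segments of different genes also depend on mRNA length. COX3, a structural core subunit of cytochrome c oxidase, supplied a larger part in the free than in the monosome pool of 12 of 12 gradients, with a median difference of 14.0 percentage points (44.7% against 30.5%, medians over gradients). ND3 did so in 12 of 12 as well (2.81% against 0.667%). COX1, ND4 and CYTB supplied a smaller part in 12 of 12, COX1 by a median of 13.2 percentage points (9.77% against 25.3%).

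**Figure D5:**
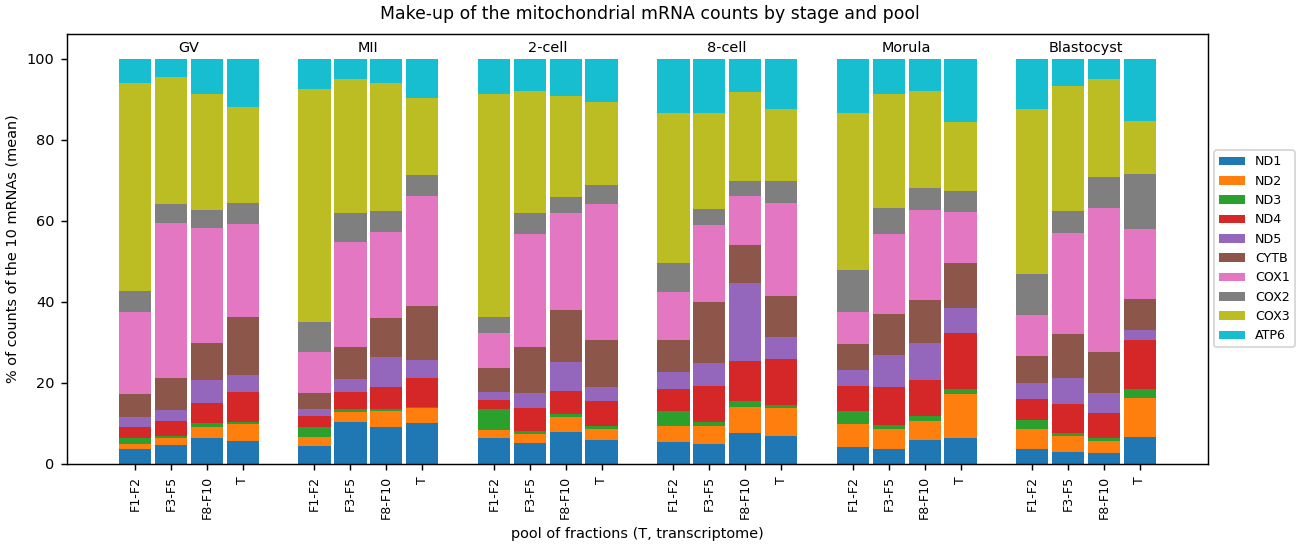
Part of each mRNA in the summed counts of the 10 (percent, stacked bars, mean of 2 gradients or 3 transcriptomes) in free (F1-F2), monosome (F3-F5) and polysome (F8-F10) pools and transcriptomes (T) of each stage. The COX3 segment is longest in F1-F2 at every stage and shortest in T at every stage, and ND5 takes 19.2% in the 8-cell polysome pools.

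The COX3 part was above that of every transcriptome of its stage in 12 of 12 free pools and in 10 of 12 polysome pools, the exceptions being pool B of 8-cell embryos and of morulae. In blastocysts it was 43.3% and 38.3% in the free pools, 22.7% and 25.7% in the polysome pools, and between 12.6% and 13.9% in the transcriptomes. In single fractions, COX3 alone was 14.8% and 10.5% of all counts in blastocyst F1 and 15.2% and 11.3% in F2. In the blastocyst transcriptomes it was 2.55%, 3.13% and 2.41%. COX1 was higher in F4 (5.86% and 4.23% of counts) than in F1 (2.72% and 1.35%) of the blastocyst gradients, and in F10 it was below F1 in both (0.848% and 1.20%).

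ND5 stood apart in the polysome fractions of 8-cell gradient B. Its level there was 3660 CPM in the polysome pool against 929 CPM in that of gradient A, and 337 against 534 CPM in the monosome pools. It made up 32.3% of the members' counts in the polysome pool of gradient B and 6.04% in that of gradient A. ND2 and ND4 were also higher in pool B (962 and 1567 CPM) than in pool A (636 and 895 CPM), while COX1, COX2, COX3, CYTB and ATP6 were lower, COX2 at 187 against 904 CPM.

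The ratio of ND5 to ND4 counts was 2.74, 2.08 and 2.45 in F8, F9 and F10 of 8-cell gradient B, 1.28, 1.02 and 0.951 in the same fractions of gradient A, and 0.448 to 0.497 in the 8-cell transcriptomes. ND6, on the opposite strand next to ND5, moved with it: 362 CPM in the polysome pool of gradient B and 124 CPM in that of gradient A. The library kit does not mark strand, and ND5 counts were fractional in 86.2% of libraries and those of ND6 in 87.0%. A fractional count means that some reads were divided between transcripts, without showing how many or between which, so the split between neighbouring genes is uncertain. ND5 at the 8-cell stage was called higher in polysome than in monosome pools (2.12 ± 0.60, SE, adjusted p = 0.0366), and the call was lost without any 1 gradient of the 8-cell, GV or 2-cell stage. Counts of ATP6 and ATP8 (97.8% and 97.1% fractional), of ND4 and ND4L (83.3% and 82.6%) and of COX3 (85.5%) carry the same limit.

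Between consecutive stages, polysome levels of the members were called at 2 steps. At the step from 2-cell to 8-cell, 10 of 10 members rose in the polysome pools, with a median log2 difference of 2.71, where 21.6% of all genes rose. ND5 rose most, from 152 and 128 CPM to 929 and 3660 CPM (4.07 ± 0.52, SE, adjusted p = 1.43e-06), and COX1 least, from 774 and 293 CPM to 2353 and 1011 CPM (1.68 ± 0.49, SE, adjusted p = 0.00687). The 8-cell pool with the highest ND5 level was gradient B, and the one with the highest COX1 level gradient A.

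From morula to blastocyst 7 of 10 rose in polysomes (median 1.53, against 5.87% of all genes). COX1 rose most, from 3970 and 1273 CPM to 14075 and 16963 CPM (2.56 ± 0.50, SE, adjusted p = 0.00183). ND1, ND3 and ATP6 were not called (adjusted p of 0.0709, 0.182 and 0.142 in edgeR). The 7 calls of this step became 2 without morula polysome pool B and 2 without blastocyst polysome pool B, both times by the loss of ND2, ND4, ND5, COX2 and COX3. The call of COX3 was lost in 21 leave-outs of 1 library and that of ND5 in 20. No member was called between GV and MII (5.43% of all genes in either direction), between MII and 2-cell (8.65%) or between 8-cell and morula (37.0%), where 1, 2 and 2 members had an unadjusted p under 0.05 and DESeq2 and the likelihood ratio test called 0.

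The polysome step and the transcriptome step were set against each other in an interaction test, which called 2 of 50. At the step from GV to MII the transcriptome level rose more than the polysome level for ND1 (difference -1.53 ± 0.48, SE, adjusted p = 0.039) and COX1 (-1.98 ± 0.62, SE, adjusted p = 0.0395), where 3.50% of all genes were called in that direction. COX1 was at 1050, 1128 and 1016 CPM in GV and 3243, 2737 and 2010 CPM in MII transcriptomes, and at 495 and 322 CPM in GV and 256 and 258 CPM in MII polysome pools. Both calls were lost without either GV polysome pool, without GV transcriptome A or B, without MII polysome pool A, and without MII transcriptome A or B, and that of COX1 also without GV transcriptome C or MII polysome pool B. Neither was called with no filter on low counts. Nor was either called with the replicate block, but that block joins transcriptomes and gradients by letter, and these letters do not pair. At the later steps no member was called, where 1.81%, 12.2%, 12.5% and 12.3% of all genes were called in either direction. There, 4, 2, 2 and 2 members had an unadjusted p under 0.05, and DESeq2 and the likelihood ratio test each called 1, at the step from 8-cell to morula.

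Nuclear genes of the same complexes are given beside the members, with no test of the difference between the 2 lists. The list of nuclear-encoded subunits of complexes I, III and IV and ATP synthase held 76 genes of the table, of which 73 or 74 were tested in each trend test. In GV oocytes 58 of 73 rose from F3 to F10 and 1 fell (median rho 0.86), where 18.1% of all genes rose and 18.7% fell, beside 10 of 10 mitochondrial members that rose. In blastocysts 30 of 73 rose and none fell (median rho 0.62), where 6.19% of all genes rose and 1.76% fell, beside all 10 mitochondrial members that fell. ATP5PD, a stalk subunit of ATP synthase, had the highest rho (0.93), and ATP5F1E, a subunit of its rotor, the lowest (-0.59).

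In the polysome pools of blastocysts 43 of 74 nuclear subunit genes were higher than in the transcriptome and 7 lower (20.0% of all genes were higher and 20.1% lower), with a median log2 difference of 1.23, beside -2.71 for the mitochondrial members. NDUFS8, an iron-sulfur subunit of complex I, was the highest at 4.10. In GV oocytes 17 were higher and 25 lower (median -0.06), where 22.2% of all genes were higher and 17.7% lower. At the step from 2-cell to 8-cell 61 of 74 nuclear subunit genes rose in the transcriptome and 4 fell (median 2.49, beside 2.39 for the mitochondrial members), where 27.7% of all genes rose and 24.6% fell. From morula to blastocyst 7 rose and 10 fell (median -0.04), shares close to the 10.8% of all genes that rose and the 12.5% that fell, beside 9 of 10 mitochondrial members that rose.

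A further list held 34 genes of the table that make and maintain mitochondrial mRNA. At the step from 2-cell to 8-cell 12 rose and 7 fell in the transcriptome, where 27.7% of all genes rose and 24.6% fell, and TFAM, which packages mitochondrial DNA and starts its transcription, rose most (log2 difference 5.31). From morula to blastocyst 1 rose and 12 fell, with a median of -0.91, where 10.8% of all genes rose and 12.5% fell. Of 79 mitochondrial ribosomal protein genes, 45 rose and 6 fell at the first of these steps (27.7% and 24.6% of all genes), and 3 rose and 33 fell at the second (10.8% and 12.5% of all genes).

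Across the 60 means of a stage and fraction, the levels of the members moved together. The means were not centred by stage, so r includes the differences between stages as well as those between fractions. Within blastocysts the COX1 mean peaked in F3 and that of ND3 in F1. Pearson's r of log2(CPM + 1) between pairs of members had a median of 0.979 and ranged from 0.921 to 0.995 over 45 pairs. Among the 8197 genes compared with the mean profile of the members, ATP8, ND4L and ND6 were the genes outside the list most like it (r = 0.9895, 0.9863 and 0.9855 in that order). The next were TMEM139 (r = 0.942) and RPS2, a protein of the small cytosolic ribosomal subunit (r = 0.939). ATP8, ND4L and ND6 each lie beside a member in the genome. Their counts were fractional in 97.1%, 82.6% and 87% of libraries, so their likeness may not be independent of the members, which was not tested. The members' own places carry no information, since each is part of that mean. These correlations share libraries, depth and scaling, and they are a description of the profiles.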

How the data were processed

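The deposited values are estimated counts per gene for 16706 genes in 138 libraries, made by the authors with Salmon on an Ensembl bovine annotation from Smart-seq poly(A) libraries (11.7% of values were not whole). The study's methods and the submitters' processing notes name different genome builds, so neither coordinates nor lengths were used. Samples were grouped by their labels. None of the 78 replicate pairs was identical. The study speaks of biological replicates, but the labels do not say that they were separate cultures. The edgeR and DESeq2 p-values therefore measure the spread between these samples, which may be technical. Permutation p-values of the trends do not measure that spread.

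Counts were summed per gradient over F1 to F2, F3 to F5 and F8 to F10, rounded, and tested with edgeR 4.0.16 in R 4.3.3 (quasi-likelihood, TMM scaling, filterByExpr, two-sided) under Benjamini-Hochberg adjustment over all genes, called at an adjusted p below 0.05. One model held 12 polysome pools and 18 transcriptomes, the other 36 free, monosome and polysome pools. SE is the absolute log2 difference divided by the root of the F statistic. Trends used 100000 permutations of Spearman's rho on log2(CPM + 1) (Python 3.11.15, numpy 2.4.6, scipy 1.17.1). CPM values use library or pool totals. Both tests were first tested on simulated data. A planned sign-flip test of the summed share is not reported, since it would give a p over a list chosen with results known.

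Alternatives were the likelihood ratio test, DESeq2 1.42.0, other scalings, no filter, other pools, pseudocounts and fractions, the replicate block and leaving out each library or gradient. Shares of all genes are those of the main fit, so member counts from the alternatives stand without such a share. The comparison of the polysome-to-monosome difference between stages was added after seeing the data. Fractions of a gradient share a lysate by the study's methods, so the fit with the gradient as a block is printed beside the pool comparisons. Deviations of pools of one gradient from their group means correlated at -0.0751 to 0.235 with the monosome pool. Transcriptome letters do not pair with gradients (r from -0.065 to 0.018). In the model with transcriptomes the block still joined samples by letter. It did so within a stage for polysomes against transcriptome and its interaction, and across stages for changes between stages. Block results of that model therefore rest on an arbitrary pairing.

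Members, gene lists and tests were chosen with earlier results of these data known. The text names all 10 members, the 5 other genes most like them, and from each list the genes with the highest or lowest value.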

Additional observations from a re-analysis of the deposited data

Results flagged for a closer look

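The 12 results below are differences between stages that passed a test of the difference itself. In the polysome against transcriptome interaction between GV and MII, ND1 had -1.53 and COX1 -1.98 on the log2 scale (adjusted p from edgeR's quasi-likelihood test of 0.039 and 0.0395). Neither passed with no filter on low counts, nor with the replicate block, which here joins libraries by letters that do not pair. In the polysome against monosome interaction, added after the data had been seen, ND5 had -4.27 between 8-cell and morula, a call lost in 8 leave-outs of 1 gradient. Between GV and blastocyst the same interaction was -5.26 for ND1, -5.84 for ND2, -5.96 for ND3, -5.56 for ND4, -6.27 for ND5, -3.95 for COX1, -5.04 for COX3, -5.23 for CYTB and -6.21 for ATP6, of which 4 passed without either blastocyst gradient, 3 without GV gradient B and 0 without GV gradient A. In all 9 the polysome pools lay above the monosome pools in GV oocytes and below them in blastocysts, in both gradients. COX2, the member not called, had the same positions. The 9 were picked by a test on these same pools, so the positions add no support. Groups of 2 and 3 libraries are too small for a test of single outlying libraries.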

How the results depend on the processing

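Of the calls of single members, DESeq2 and the likelihood ratio test kept 129 of 129, scaling without the members 164 of 166, RLE scaling 125, library totals 124 and no filter 125 of 129, and leaving out 1 library or gradient 3109 of 3386. A lone remaining sample is then assumed to vary like the other groups. RLE scaling moved the median of all genes by -0.24 to 0.12 and library totals by -0.36 to 0.47.

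The 52 members lower in polysomes than in transcriptomes became 45 to 56 (47 to 54 in leave-outs), the 27 transcriptome calls 24 to 30, and the 17 polysome calls 16 to 18 (12 to 18 in leave-outs). The 2 interaction calls became 0 without a filter and 0 with the replicate block, and 0 to 5 in leave-outs. For polysome against monosome pools, the 7 higher calls became 14 (likelihood ratio test), 20 (DESeq2), 4 (RLE) and 12 (library totals), with 0 to 17 in leave-outs, and 0 without either GV gradient. The 3 lower calls became 18, 18, 5 (library totals) and 1 (fractions weighted equally), with 0 to 10 in leave-outs, and 0 without either GV, MII or 2-cell gradient. The 11 free pool calls became 19 in DESeq2 and 3 to 18 in leave-outs, with 3 without either MII gradient. The 10 calls of the stage interaction became 18 (likelihood ratio test) and 19 (DESeq2), with 0 to 14 in leave-outs. With the gradient as replicate block these counts were 24 higher, 20 lower, 29 and 21. A block by letter left the transcriptome calls at 27 and lowered the polysome against transcriptome calls to 45, but the letters do not pair those libraries. The same limit holds for the 0 polysome against transcriptome interaction calls with the block.

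Over all 10 fractions, the 27 upward trends became 5 and the 10 downward 20, and COX3 and ATP6 in MII and ND3 in 2-cell reversed to rho of -0.13, -0.054 and -0.027. With 1 gradient alone the upward trends were 6 to 9 and the downward 0 to 0. The median over members changed sign across settings for MII to 2-cell in transcriptomes (-0.51 to 0.049), for GV to MII (-0.17 to 0.30) and 8-cell to morula (-0.34 to 0.25) in polysomes, and for the 8-cell trend (-0.18 to 0.33). The cause of these changes was not tested. The summed share stayed higher in polysome than monosome pools in 8 and in free than monosome pools in 12 of 12 gradients when fractions were averaged or COX3 left out. With 2 gradients a stage, single-gene calls between pools rest on both.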
